A study of Mus musculus with 24 samples.

Results

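Mc2r encodes the receptor for adrenocorticotropic hormone (ACTH), and Mrap encodes the small accessory protein that the receptor needs to reach the cell surface. Both transcripts were followed in whole adrenal glands of mice around the clock in constant darkness. Members were all probe sets, the groups of short probes that an expression array carries for a transcript, that the platform's annotation assigned to either gene. There were 3 of these among 45101 probe sets, 1 for Mc2r and 2 for Mrap, and they stood for 2 of the 18194 genes with a symbol of their own.

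The animals were male C57B/6J mice of 3 months, labelled wild type, and they carried no other allele or agent in the labels. They had lived for 2 weeks with 12 h of light and 12 h of darkness a day and were killed in constant darkness. Whole glands were taken every 4 h, first at 38 h and last at 82 h after lights off, and the 12 time points have 2 arrays each, which makes 24. Projected circadian time (CT) is these hours minus 12, modulo 24, so that CT12 to CT24 was the dark part of the earlier schedule, and the groups are CT2, CT6, CT10, CT14, CT18 and CT22, each seen in 2 cycles. Whether the arrays of a group came from separate or pooled animals is not stated in the labels, so the p-values reflect no more than the spread among these samples, and that spread may be technical.

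ACTH from the pituitary binds its receptor on cells of the adrenal cortex, which couples through the stimulatory G protein to adenylyl cyclases. Cyclic AMP then activates protein kinase A, and this drives cholesterol uptake and transport and the transcription of steroid-synthesis genes. The receptor does not reach the plasma membrane or bind ACTH without its accessory protein, and loss of either gene in humans gives familial glucocorticoid deficiency. Both genes are also known to be active in mouse fat cells.

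Of the 24 arrays, 12 formed 6 pairs of near-copies, in which, with 1 array of the pair as the reference, no probe set with a signal of 50 or more on both differed by over 5%. With the other array as the reference 97.6% to 97.8% of these probe sets lay within 5%. In 5 of the pairs the arrays were labelled 24 h apart, and in 1 pair they were both arrays of 70 h. Each pair was averaged and counted as 1 sample, which left 18 profiles, 3 per CT. A spike-in control, ThrX-3, read 56.4 to 101 on 16 arrays and 513 to 1858 on the 8 arrays of CT10 and CT18, which are called the second array batch. In that batch the 5′ to 3′ signal ratio of Gapdh, a sign of RNA quality, was 0.822 to 0.949 at CT10 and 0.0386 to 0.978 at CT18, against 1.03 to 1.15 in the first batch. Batch and circadian time cannot be told apart for levels set between CT10 or CT18 and the other 4 times. Each rhythm is therefore given 3 ways: over all 18 profiles, over 18 profiles with the batch as a block, and over the 12 profiles of the first batch. Defining genes of the cortex were bright, with median signals of 12407 for Cyp11a1 and 12754 for Star, and medullary markers such as Th were present at 5506, so the glands matched their label of whole adrenal.

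Mrap was highest late in the projected night and lowest before the projected dusk, at CT10, or at CT6 among the 4 times of the first batch. The brighter of its 2 probe sets read 6693, 6180.3 and 5667 at CT22 and 5603, 5265 and 5215 at CT2. It read 3611, 3630.1 and 4573 at CT6, and 2592, 2744 and 2360.2 at CT10. At CT14 it stood at 4668, 4616 and 4771, and at CT18 at 4541, 4104 and 4464. Every CT22 profile lay above every profile of the other 5 times, and every CT10 profile lay below them, a pattern met in 0.185% of the 27022 probe sets tested. The first of these features alone was met in 0.570% of probe sets and the second, which sets a second-batch time against the rest, in 8.12%. From high to low the order was CT22, CT2, CT14, CT18, CT6 and CT10, and of the neighbours in that order CT18 and CT6 alone overlapped. Mean log2 signals ran from 12.60 ± 0.12 (SD, n = 3) at CT22 to 11.35 ± 0.11 (SD, n = 3) at CT10.

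**Figure D1:**
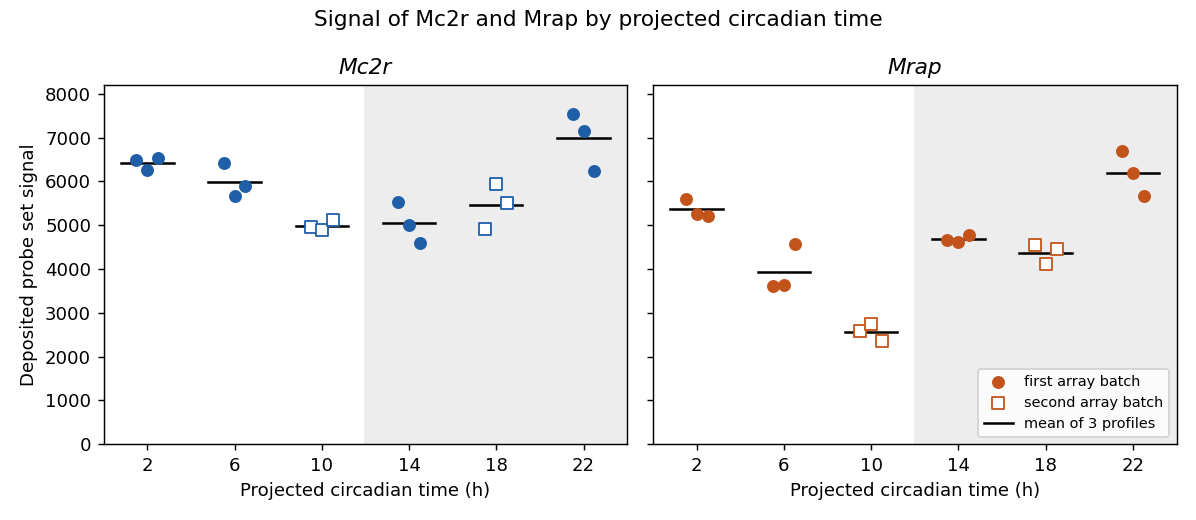
Deposited probe set signal (linear scale from 0) of Mc2r and of the brighter Mrap probe set against projected circadian time; points are the 3 profiles of each time, filled for the first and open for the second array batch, black lines are means, and grey marks the projected night. The 3 Mrap points at CT22 (5667 to 6693) lie above all others and the 3 at CT10 (2360.2 to 2744) below, whereas Mc2r runs from 4596 to 7547 with overlapping neighbours.

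The Mrap signal followed a 24 h cosine in each of the 3 fits. Amplitudes are given as the distance from the mean to the peak in log2 units, and adjusted p-values are from limma's moderated F test with Benjamini-Hochberg adjustment over all tested probe sets. Over 18 profiles the amplitude was 0.48 ± 0.08 (SE), a peak-to-trough ratio of 1.93, with the peak at 22.1 ± 0.620 h (SE) and an adjusted p of 0.00268; 10.2% of tested probe sets passed in this fit. With the batch as a block it was 0.41 ± 0.04 (SE), a ratio of 1.78, with the peak at 20.7 ± 0.376 h and an adjusted p of 4.92e-06, where 16.0% of probe sets passed. By p-value Mrap ranked 23 of 27022 in that fit. Within the first batch the amplitude was 0.38 ± 0.05 (SE), the ratio 1.70, the peak 20.8 ± 0.404 h and the adjusted p 0.00149, beside 10.1% of probe sets passing. Of the 4319 probe sets that passed with the batch as a block, 473 had an amplitude at least as large, with a median of 0.23.

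Mrap also differed in comparisons that stay inside a batch. It was higher at CT22 than at CT6 by 0.65 ± 0.08 log2 units (SE), a 1.57-fold difference with an adjusted p of 0.000923, and 0.792% of probe sets were higher in this comparison. Within the second batch it was higher at CT18 than at CT10 by 0.76 ± 0.08 (SE), 1.69-fold, with an adjusted p of 1.35e-05; 10.8% of probe sets were higher there. Both calls held without each profile in turn, with adjusted p-values up to 0.00898 and 0.000133. CT10 and CT18 also differed in other ways: summed liver markers (5 of 6 listed were on the array) were 1469 to 1707 at CT10 and 1659 to 16823 at CT18, and summed muscle markers (6 of 6) were 860 to 12383 and 1352 to 32850. Their part in the difference was not tested. Leaving out the profiles with high Acta1, a muscle actin, left 1 profile at CT10 (46 h array 2) and 1 at CT18 (54 h array 2). The CT18 profile exceeded the CT10 profile by 0.57 log2 units, a difference without replicates. The blocked amplitude of Mrap was then 0.37.

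Smaller steps of Mrap rested on fewer profiles. It fell by 0.45 ± 0.08 log2 units (SE) from CT2 to CT6 (adjusted p 0.0418, 0.115% of probe sets lower), but this call was lost in 10 of the 18 repeats that left out 1 profile, with adjusted p up to 0.280. These were the repeats without any CT2 or CT14 profile, 42 h array 1, 46 h array 1, the pair of 66 h array 1 and 42 h array 2, or the pair of 58 h array 2 and 82 h array 2. The call was also lost without the filter on dim probe sets (adjusted p 0.0560), after quantile normalization (0.0571) and with arrays centred on their medians (0.0665). It was higher at CT22 than at CT14 by 0.39 ± 0.08 (SE, adjusted p 0.0269, 0.481% of probe sets higher), a call lost in 5 of 18 repeats, those without any CT14 profile, 58 h array 1 or the pair of 58 h array 2 and 82 h array 2, with adjusted p up to 0.135. CT14 stood above CT6 by 0.26 ± 0.08 (SE), with an adjusted p of 0.111 in a comparison where 2.49% of probe sets were higher, and this passed without 66 h array 2 (0.37, adjusted p 0.0125). The differences CT14 minus CT2 (-0.19, adjusted p 0.280) and CT22 minus CT2 (0.20, adjusted p 0.484) did not pass.

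Mc2r, the receptor itself, swung over a smaller range and was highest from the late projected night into the early day. Its probe set read 7547, 7152 and 6235 at CT22, 6489.5, 6248.5 and 6532 at CT2, and 6425, 5655 and 5899 at CT6. At CT10 the signals were 4958.5, 4896 and 5118, at CT14 they were 5523, 4998 and 4596, and at CT18 they were 4918, 5946 and 5509. All profiles of CT22, CT2 and CT6 lay above all of CT10 and CT14, while CT18 spanned the gap. The share of probe sets with this pattern was not counted, so it is given as a description only. Its part at CT10 sets a second-batch time against first-batch times. From high to low the order was CT22, CT2, CT6, CT18, CT14 and CT10, and every pair of neighbours in it overlapped. Mean log2 signals ran from 12.77 ± 0.14 (SD, n = 3) at CT22 to 12.30 ± 0.03 (SD, n = 3) at CT10.

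The Mc2r rhythm was about as large in each fit. Over 18 profiles the amplitude was 0.24 ± 0.04 (SE), a peak-to-trough ratio of 1.39, with the peak at 0.393 ± 0.569 h and an adjusted p of 0.00146. With the batch as a block it was 0.22 ± 0.04 (SE), a ratio of 1.36, the peak at 0.234 ± 0.618 h and the adjusted p 0.00296. In the first batch it was 0.23 ± 0.04 (SE), a ratio of 1.38, the peak at 23.8 ± 0.740 h and the adjusted p 0.00876. Among the 4319 probe sets that passed with the block, 2308 had an amplitude at least as large, so that of Mc2r was near the middle of the called range. Beside the cosine, the batch term of Mc2r was -0.07 ± 0.06 log2 units (SE, second minus first batch, adjusted p 0.370). That of Mrap was -0.50 ± 0.06 (SE, adjusted p 4.22e-06), and 30.4% of probe sets were lower in the second batch by this term.

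**Figure D2:**
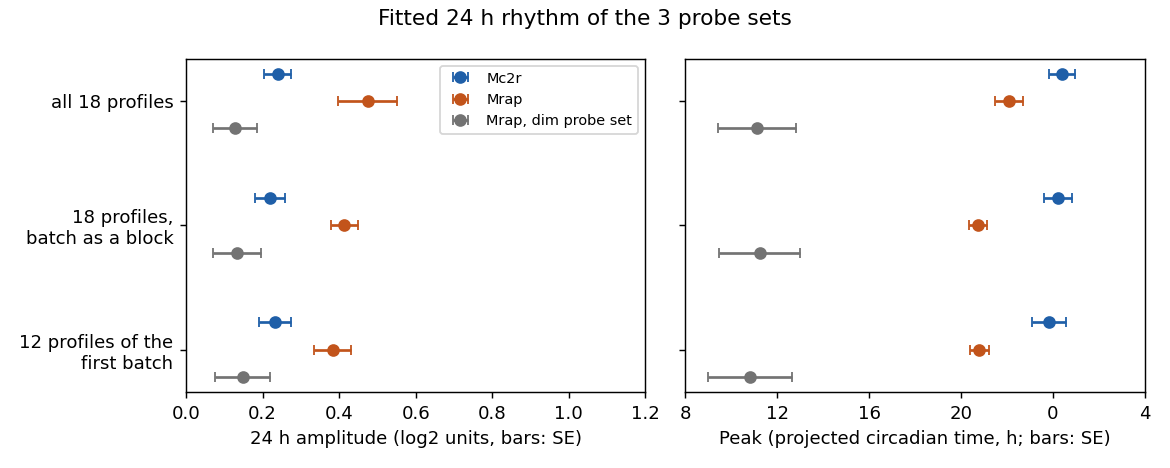
Amplitude (left, log2 units) and peak time (right, projected circadian time in h) of the 24 h cosine for the 3 probe sets in each of the 3 fits; points are estimates and bars are SE. Mrap peaks at 20.7 to 22.1 h with amplitudes of 0.38 to 0.48, and Mc2r at 23.8 to 0.393 h with amplitudes of 0.22 to 0.24.

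Within the first batch, Mc2r was higher at CT22 than at CT14 by 0.47 ± 0.08 log2 units (SE), 1.38-fold, with an adjusted p of 0.00895. In this comparison 0.481% of probe sets were higher. It was lower at CT14 than at CT2 by a difference of -0.35 ± 0.08 (SE, adjusted p 0.0232), where 1.67% of probe sets were lower. The first call was lost without 50 h array 2 (adjusted p 0.0528) or without 74 h array 1 (0.0508). The second was lost in 5 of 18 repeats, those without any CT2 profile, 50 h array 2 or 74 h array 1, with adjusted p up to 0.114. The other steps did not pass: CT14 minus CT6 was -0.25 (adjusted p 0.101), CT22 minus CT6 was 0.22 (0.244), CT22 minus CT2 was 0.11 (0.724) and CT6 minus CT2 was -0.10 (0.9997). In the second batch CT18 stood 0.12 ± 0.08 (SE) above CT10 with an adjusted p of 0.309, at the pair of times where Mrap differed by 0.76; the difference between the genes at that pair was not tested. The Mc2r value was 0.04 after quantile normalization (adjusted p 0.818). Without the profiles with high Acta1 it was 0.28 and that of Mrap 0.57, each from 1 profile per time. The CT18 profile left, 54 h array 2, had the highest Mc2r signal of that time.

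Levels over the 6 times also differed when no shape was assumed. The adjusted p of limma's F test was 0.000457 for Mc2r and 1.91e-07 for Mrap, in a test that 52.9% of probe sets passed and that takes in the batch. Over the 4 times of the first batch it was 0.0132 for Mc2r and 0.00334 for Mrap, and 8.54% of probe sets passed. A 12 h component was also fitted beside the 24 h one. It takes up departures from a plain 24 h cosine, such as a second daily peak. Its amplitude was 0.03 ± 0.04 (SE, adjusted p 0.796) for Mc2r and 0.20 ± 0.06 (SE, adjusted p 0.181) for Mrap, and 0.263% of probe sets passed. With the batch as a block these were 0.07 (adjusted p 0.652) and 0.06 (0.737), beside 2.99% of probe sets.

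**Figure D3:**
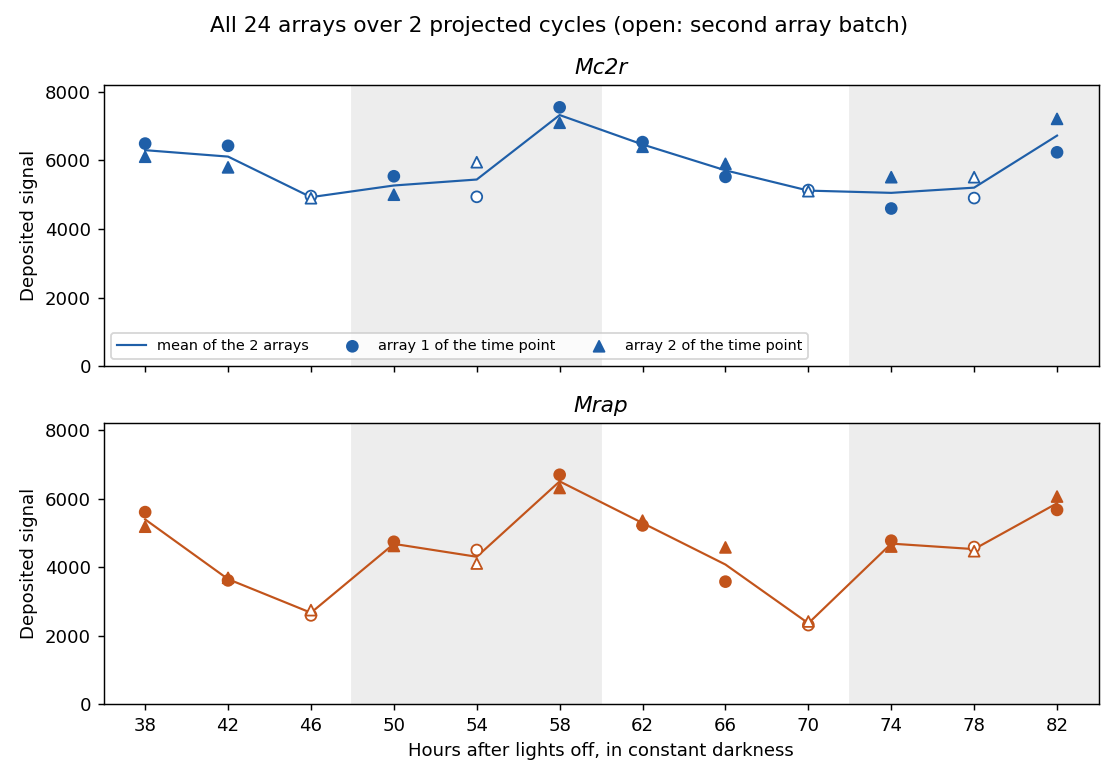
Deposited signal of Mc2r and the brighter Mrap probe set on all 24 arrays against hours after lights off (38 to 82 h); circles and triangles are the 2 arrays of a time point, lines join their means, open symbols are the second array batch and grey marks the projected nights. The Mrap trough at CT10 is seen at 46 and at 70 h, with signals of 2308 to 2744, and 12 of the arrays belong to near-copy pairs.

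No difference between the cycles passed the test. Over the 13 profiles whose arrays lay in 1 cycle, 7 of the earlier and 6 of the later cycle, the later minus the earlier cycle was -0.09 ± 0.04 log2 units (SE, adjusted p 0.636) for Mc2r and -0.01 ± 0.07 (SE, adjusted p 0.974) for Mrap. In limma's test 0 of 27022 probe sets passed for this difference (0.00%), and 2178 (8.06%) had an unadjusted p under 0.05. A test of whether the 24 h rhythm differed between cycles gave an adjusted p of 1 for both genes and called 0 probe sets (0.00%), with 537 (1.99%) at an unadjusted p under 0.05.

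Receptor and accessory protein transcripts were correlated over all profiles and less clearly within batches. Pearson's r between their log2 signals was 0.639 and Spearman's rho 0.610 over 18 profiles (permutation p 0.00401 and 0.00849, two-sided; adjusted 0.0321 and 0.0340 over the 8 coefficients of 4 sets of profiles). Without the 2 profiles farthest from the median of Mc2r, r was 0.679. After centring each batch, r was 0.466 and rho 0.463 (permutation p 0.0337 and 0.0446, both adjusted to 0.0723). Within the first batch r was 0.532 and rho 0.594 (n = 12, permutation p 0.0739 and 0.0452, adjusted 0.0986 and 0.0723), and 0.699 without the 2 farthest. Within the second batch r was 0.486 and rho 0.0286 (n = 6, exact permutation p 0.376 and 1), and r was -0.55 without the 2 farthest. The relation therefore did not pass the adjusted threshold within batches. Profiles of the same circadian time were shuffled as if independent. These p-values therefore do not allow for the daily course that each gene had.

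The difference between the 2 signals also changed over the day. Such a course arises where 2 rhythms differ in amplitude, in peak time or in both, and is not a further rhythm beside them. Levels of different probe sets cannot be set against each other, so only the change of the log2 difference over time, Mc2r minus Mrap, is read. Its mean was 0.26 ± 0.06 (SD, n = 3) at CT2, 0.61 ± 0.23 at CT6, 0.95 ± 0.14 at CT10, 0.10 ± 0.15 at CT14, 0.31 ± 0.21 at CT18 and 0.17 ± 0.04 at CT22. All CT6 and CT10 values, 0.36 to 1.10, lay above all values of CT2, CT14 and CT22, which reached 0.32 at most. Values at CT18 (0.11 to 0.53) overlapped with those of CT6. How often other pairs of probe sets have this pattern was not counted, so it is a description only. Its part at CT10 sets second-batch profiles against first-batch ones, and the batch term was -0.50 for Mrap and -0.07 for Mc2r. A 24 h cosine beside the batch explained a share of 0.707 of the remaining variance, with an amplitude of 0.33 and a peak at 6.61 h (one-sided permutation within batches, p = 0.0002). In the first batch the share was 0.614 and the amplitude 0.28 (permutation p 0.00762). The fitted Mc2r peak came after the Mrap peak by 1.1 to 3.57 h over the alternatives without the block and by 2.23 to 4.63 h with it; this gap itself was not tested.

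**Figure D4:**
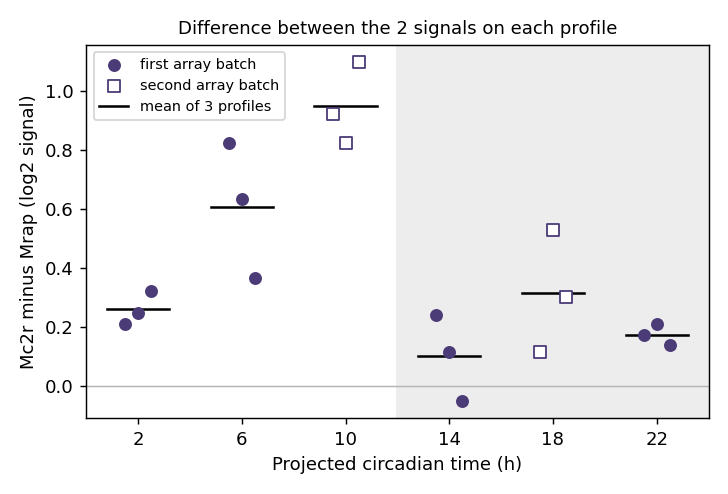
Log2 signal of Mc2r minus that of Mrap in each profile against projected circadian time; points are profiles (open for the second array batch), black lines are means of 3, and grey marks the projected night. The difference is largest at CT6 and CT10 (0.36 to 1.10), of which CT10 is in the second array batch, and lowest at CT14 (-0.05 to 0.24).

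The second Mrap probe set, which the annotation ties to a different deposited transcript sequence, was dim. Its mean signal was 218.5 where the filter on dim probe sets stood at 183.3, and its profiles ranged from 152.4 to 290.0. Profiles of all neighbouring times overlapped. Its 24 h amplitude with the batch as a block was 0.13 ± 0.06 (SE, adjusted p 0.297), and it was 0.13 without the block (adjusted p 0.258) and 0.15 in the first batch (0.360). It passed where all 24 arrays, near-copies included, were taken as independent (0.17, adjusted p 0.0346, and with the block 0.17, peak 9.86 h, adjusted p 0.0382). Over the 18 profiles a 24 h rhythm of Mrap was called with 1 of its 2 probe sets. All 3 members passed the filter, which used the mean over all arrays.

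The other melanocortin genes were read next. Of 11 listed genes of this group, 8 were tested, and with the batch as a block 2 passed, both with peaks in the projected day; the background is 16.0% of all probe sets. Mgrn1, an E3 ubiquitin ligase that lowers melanocortin signalling, had an amplitude of 0.17 ± 0.03 (SE), a peak at 8.13 h and an adjusted p of 0.00233. Atrn, the attractin gene, had 0.19 ± 0.05 (SE) with a peak at 8.44 h (adjusted p 0.0461), and did not pass without the block (0.125). Mrap2, a paralogue of Mrap known for its action on another melanocortin receptor in the brain, had signals of 184.8 to 239.8 at CT10, 266.6 to 340.1 at CT18 and 291.7 to 424.0 at the other times. Its rhythm with the block was 0.12 ± 0.06 (SE, adjusted p 0.324), and CT18 exceeded CT10 by 0.37 ± 0.11 (SE, adjusted p 0.0256). Mc3r, named after its values were seen, read 250.5 to 301.3 at CT10 and 376.2 to 494.5 at CT18, a difference of 0.56 ± 0.09 (SE, adjusted p 0.000459), with a rhythm of 0.17 (adjusted p 0.0763 with the block). Of the 8 genes, these 2 were higher at CT18 than at CT10 and 2 were lower, Atrn (-0.57, adjusted p 0.000459) and Mgrn1 (-0.39, adjusted p 0.000362), where 10.8% of all probe sets were higher and 10.9% lower.

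The signalling steps below the receptor were read through 6 further lists, each gene by its brightest probe set. Over all 7 lists 76 genes were tested, 19 passed without the block and 23 with it (18 in both). The blocked share was 30.3% beside 16.0% of all probe sets, and the median blocked amplitude was 0.13 beside 0.10 over all probe sets. This background holds every tested probe set, not the brightest of each gene. With 1 probe set per gene, 2482 of 13880 genes passed in the blocked fit. Of the 23, 4 had a larger amplitude than Mrap and 12 a larger one than Mc2r. Peaks with the block lay within 6 h of CT22 for 9 of the 23 and elsewhere for 14, beside 1925 and 2394 of the 4319 probe sets called. At CT22 against CT6, 0 of the 76 were higher and 1 was lower in limma's test, Jun (-0.61, adjusted p 0.00798), where 0.792% of probe sets were higher and 0.955% lower.

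Of the stimulatory G protein and adenylyl cyclases, 12 genes were tested and 2 passed with the block. Gnas, the G protein's alpha subunit that the receptor acts through, had an amplitude of 0.04 ± 0.02 (SE, adjusted p 0.447). Adcy9 had 0.21 ± 0.05 (SE, peak 6.47 h, adjusted p 0.0135) and Adcy6 0.25 ± 0.06 (SE, peak 14.7 h, adjusted p 0.0186), the latter not without the block (0.04, adjusted p 0.942).

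Of the protein kinase A genes 5 of 11 passed with the block and 6 without it. Akap13, which anchors the kinase, had an amplitude of 0.24 ± 0.03 (SE) with a peak at 11.0 h (adjusted p 0.000538). The regulatory subunit Prkar2b had 0.30 ± 0.05 (SE, peak 15.2 h, adjusted p 0.00262). Prkar2a peaked at 19.4 h (0.20, adjusted p 0.00602) and Prkar1b at 19.7 h (0.21, adjusted p 0.0115), the nearest to Mrap among the kinase genes named.

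Of the phosphodiesterases, which break down cyclic AMP, 4 of 12 passed with and without the block. Pde8b, an enzyme of the adrenal cortex that restrains steroid output, had an amplitude of 0.43 ± 0.06 (SE) and a peak at 22.9 h (adjusted p 0.000285). At CT18 against CT10, Pde8b was higher by 0.55 (adjusted p 0.00763) and Pde7b lower (-0.55, adjusted p 0.00719), the 2 calls in this list. Pde7a (0.25, peak 14.4 h), Pde8a (0.19, peak 14.4 h) and Pde7b (0.26, peak 9.73 h) had adjusted p-values of 0.00804, 0.0179 and 0.0125. In the list of receptor desensitization and traffic 2 of 10 passed, the recycling GTPases Rab4a (0.17, peak 21.7 h, adjusted p 0.0150) and Rab11a (0.13, peak 0.184 h, adjusted p 0.0338).

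Transcription factors that respond to ACTH passed in 6 of 13 genes with the block and 5 without it. The immediate early genes Jun (0.38 ± 0.05, SE, peak 8.18 h, adjusted p 0.000135) and Junb (0.89 ± 0.19, SE, peak 6.96 h, adjusted p 0.0113) peaked in the projected day. The nuclear receptors Nr4a1 (0.67, peak 9.23 h, adjusted p 0.0166) and Nr4a3 (0.27, peak 12.9 h, adjusted p 0.0338) also passed. Nr5a1, steroidogenic factor 1, a regulator of Mc2r and of steroid genes, had 0.29 ± 0.08 (SE) with a peak at 15.9 h (adjusted p 0.0380, and 0.0824 without the block). Nr0b1, a repressor that binds it, had 0.12 ± 0.07 (SE, adjusted p 0.433).

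Of the steroid-synthesis list 2 of 10 genes passed with the block. Stard4, a cholesterol carrier, had an amplitude of 0.49 ± 0.07 (SE) and a peak at 16.8 h (adjusted p 0.000466). Scarb1, the receptor that takes up cholesterol esters from lipoproteins, had 0.20 ± 0.05 (SE, peak 17.0 h, adjusted p 0.0352, and 0.238 without the block). Star, which moves cholesterol into mitochondria, had 0.08 ± 0.02 (SE, adjusted p 0.0637), at a median signal of 12754. The highest signal of any probe set was 13030 to 14320 by array. Star thus lay near the top of the scale, as did Fdx1, Hsd3b1 and Cyp11a1 of this list (median signals 12939, 12889 and 12407). The amplitudes of these genes may be understated.

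**Figure D5:**
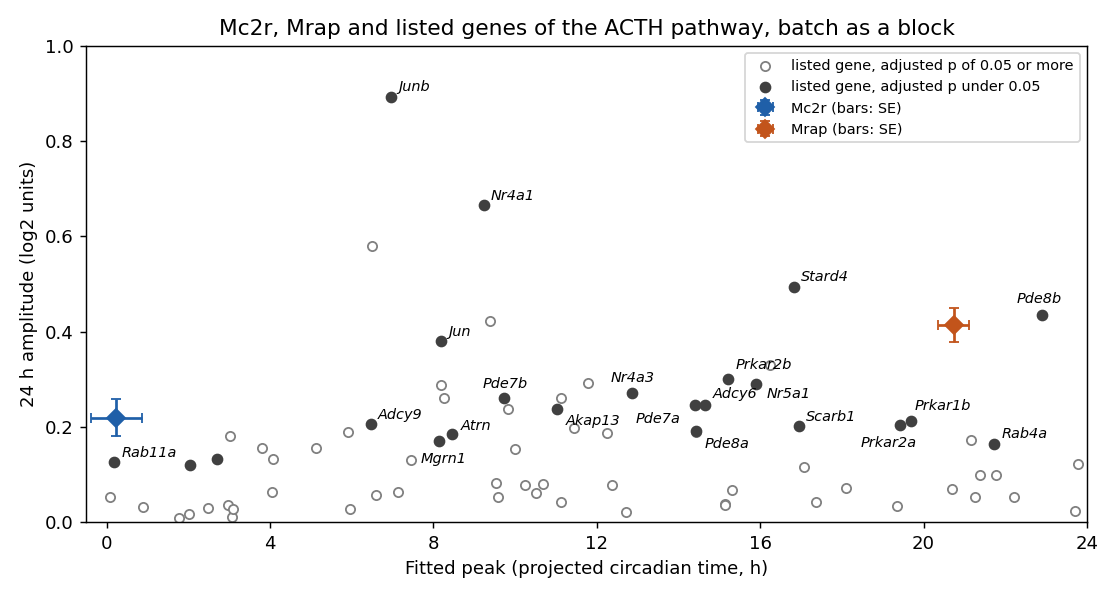
Amplitude (log2 units) against fitted peak (projected circadian time in h) of the 76 tested genes of the ACTH pathway lists, from the blocked fit; filled points passed the adjusted threshold (23), open ones did not, names are given by the rule for named genes, and bars on Mc2r and Mrap are SE. Mrap (0.41 at 20.7 h) lies nearest to Pde8b (0.43 at 22.9 h) among the large amplitudes, and Mc2r (0.22) peaks at 0.234 h.

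Genes whose course was most like that of each member were ranked by Pearson's r of batch-centred log2 signals over the 18 profiles, among 13879 other genes, as a description. All profiles share the array batches and the 6 times. For Mc2r they were Paqr8 (0.929), Maged2 (0.927), Ermp1 (0.924), Antxr2 (0.924), Mtmr11 (0.916) and Col5a3 (0.909), with fitted peaks from 23.1 to 0.407 h; for Maged2 the r without centring was 0.404. For Mrap they were Thsd7a (0.928), Ltbp1 (0.907), 4933431K23Rik (0.903), Akr1e1 (0.901), Mrps25 (0.898) and Efcab6 (0.897), with fitted peaks from 19.8 to 20.1 h. Mrap came at rank 1022 in the list of Mc2r, and Mc2r at rank 1904 in that of Mrap. Akr1e1 encodes an aldo-keto reductase and Ltbp1 a binding protein of latent TGF-beta, while Col5a3 encodes a collagen chain.

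Markers of fat cells, the other cell type known for both transcripts, were present in all glands. Fabp4 and Adipoq ranged from 11366 to 13736 and from 4837 to 8769, the former close to the highest signals of the arrays (13030 to 14320). Of 10 listed markers 8 were on the array. Their summed signal was 30328, 32230 and 47118 at CT22, 34522 to 40269 at CT2, 33580 to 46670 at CT6, 38472 to 44512 at CT10, 38361 to 49588 at CT14 and 33792 to 49094 at CT18. Groups overlapped, and 2 of the 3 CT22 profiles had the lowest sums of all. Across 18 profiles the log2 sum was related to Mc2r with r = -0.69 and rho = -0.69 (permutation p 0.0018 and 0.0017, both adjusted to 0.0108 over 12 coefficients), and r was -0.54 without the 2 farthest profiles. Within the first batch r was -0.71 and rho -0.73 (permutation p 0.0086 and 0.00848, both adjusted to 0.0258), and r was -0.43 without the 2 farthest. Within the second batch r was -0.43 (n = 6, exact permutation p 0.392, and 0.57 without the 2 farthest). For Mrap r was -0.30 over 18 profiles (permutation p 0.225) and -0.34 in the first batch (permutation p 0.288). In the second batch it was 0.163 (n = 6, exact permutation p 0.739), and 0.904 without the 2 farthest. Here too, profiles of the same circadian time were shuffled as if independent, so the p-values do not allow for a course over the day. Pparg, a fat cell regulator, had a blocked amplitude of 0.13 ± 0.16 (SE, adjusted p 0.837), while 2 of the 8 markers passed, Lep (0.97, peak 18.9 h, adjusted p 0.00612) and Cidec (0.67, peak 14.6 h, adjusted p 0.0407), named after their values were seen. The part of fat in the Mc2r rhythm was not tested, and in whole glands fewer cells of a type and less RNA per cell cannot be told apart. Summed cortex markers (7 of 8 listed) were 75000 to 78111 at the 4 first-batch times, 68715 to 73091 at CT10 and 65312 to 76011 at CT18. CT10 and CT18 form the second batch, and the markers did not move alike. By mean signal, CT10 lay below all first-batch times for Cyp11a1, Cyp21a1 and Fdx1, but not for Cyp11b1, Hsd3b1, Star or Nr5a1. Star was highest at CT10 (13161). The relation of these markers to Mrap was not tested.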

How the data were processed

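The authors deposited 1 intensity value per probe set and array on a linear scale. Their summary and scaling method was not given in the sources used here. The arrays' log2 medians lay between 8.14 and 8.32, and no further normalization was applied. Values were analysed as log2(intensity + 51), 51 being the 10th percentile of all values, which understates fold changes of dim genes. Arrays give no read depth; their number limits the precision. Probe sets with a mean under the 40th percentile were left out, which left 27022, and 64 controls were not tested. The platform's annotation gave 1 symbol to 34958 probe sets and several to 932, and did not list 9211. Near-copies (5% tolerance) and array batches (ThrX-3 above 300) were defined from the data. Rhythms, contrasts and F tests were fitted with limma 3.58.1 (trend) in R 4.3.3 after tests on simulated data. Single comparisons used 100000 permutations drawn with NumPy 2.4.6, or all orders, with ranks from SciPy 1.17.1. Alternatives covered offset, filter, normalization, probe set choice, replicates, batch and single profiles.

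The members and all gene lists were chosen with earlier results of these data known. Named were all member probe sets, the 6 genes most like each member, up to 4 called genes per list with the lowest blocked p, and Mrap2, Gnas, Nr5a1, Nr0b1, Star and Pparg.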

Additional observations from a re-analysis of the deposited data

How the results depend on the processing

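The 24 h rhythms of Mc2r and Mrap passed in all fits run except some within single array sets. Peaks were listed for 31 settings each, besides those without each profile in turn. They lay from 23.1 to 1.25 h for Mc2r and from 20.5 to 22.5 h for Mrap. The settings are not 31 separate checks of the peak. Some repeat the same fit, and the filter and the number of probe sets per gene leave the peak as it was. With array set 1 only, Mc2r had an amplitude of 0.25 (adjusted p 0.0598), or 0.20 with the batch as a block (0.0664), and with array set 2 only Mrap had 0.46 (adjusted p 0.0631). Without each profile in turn, Mc2r ranged from 0.22 to 0.26 (0.18 to 0.25 with the block, 0.20 to 0.26 in the first batch) and Mrap from 0.42 to 0.50 (0.40 to 0.44 and 0.35 to 0.43). The replicate block, the array set in the labels, changed neither call; the sets share only a letter. Probe sets with a rhythm numbered 2749, but 4319 with the batch as a block, 1777 with 1 probe set per gene, 7411 with 24 arrays as independent, 1435 over time point means, 1508 with the replicate block, 743 and 523 in set 1 and set 2, and 1486 without profiles with high Acta1. From 4319 the blocked count moved to 2482 with 1 probe set per gene, 8581 with 24 arrays, 2712 with the replicate block, and 2799 and 1710 in set 1 and set 2. Without single profiles the counts were 1726 (without 46 h array 1) to 3358, 2924 to 4633 with the block, and 1499 (without 50 h array 2) to 3053 in the first batch, where each CT14 profile moved the count of 2727 by over 1.5 times. The correlation of both genes was 0.532 in the first and 0.486 in the second batch. Leaving out profiles gave 0.16 to 0.29 and 0.06 to 0.20 for Mc2r at CT22 minus CT6 and CT18 minus CT10, and 0.59 to 0.76 and 0.70 to 0.81 for Mrap. The blocked fits under other offsets, filters, normalizations, probe set choices and left-out profiles, the first-batch fits without single profiles, the blocked replicate block, the correlations taken within batches and those with fat markers were chosen after seeing the data. The cause of these moves was not tested.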
